A study of Mus musculus with 28 samples.

Results

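Liver makes fatty acids from acetyl-CoA and stores them as triglyceride, and 35 genes of this route were followed on 28 whole mouse genome arrays, 1 for each liver. The animals were male mice of the strain C57/6J. The genes were listed by their roles, with earlier results of these data known. Each was found by its gene name in the scanner files, and the brightest of its probes stood for it. All 35 were on the array, with 65 probes, and make up 35 of the 21851 genes tested. The probe used for each was well above background on 28 of 28 arrays. Feeding began at 7 weeks of age and lasted 26 weeks, so that the mice were 33 weeks old. The control mice ate a standard diet (SD, n = 5), and 6 mice ate a high fat diet (HFD). In the other 3 groups the high fat diet held a plant polyphenol: the flavonol quercetin at 0.4%, or 4 g per kg of diet (HQ, n = 5), the stilbene resveratrol at 0.4%, or 4 g per kg (HR, n = 6), or both at 0.2%, or 2 g of each per kg (HQR, n = 6). Of the RNA samples, 2 of 30 were left off the arrays because they were degraded. The standard diet was given without either compound.

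In this route, citrate leaves the mitochondrion through the carrier Slc25a1 and is split by Acly, while Acss2 makes acetyl-CoA from acetate and Me1 supplies NADPH. Acetyl-CoA carboxylase (Acaca, and Acacb at the mitochondrial surface) makes malonyl-CoA, and fatty acid synthase (Fasn) builds palmitate from it. Elongases (Elovl genes) and desaturases (Scd and Fads genes) modify the chain, acyl-CoA synthetases (Acsl genes) activate it, and Gpam, the Agpat and Lpin enzymes and Dgat1 or Dgat2 join it to glycerol in turn. In liver the transcription factors SREBP-1c, encoded by Srebf1, and ChREBP, encoded by Mlxipl, are known to raise this programme after feeding, in response to insulin and to sugar. The lipases Pnpla2, Lipe and Mgll run the store in reverse.

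The promoters of Fasn, Acss2, Thrsp and Mlxipl are shown because these genes were among those that varied with Srebf1 between mice, as given further on. Acsl3, Acly, Acaca and Acsl5 had a larger r with Srebf1 than Mlxipl and are not shown, so the promoters shown do not stand for all such genes. They are the 250 bases before the start of the gene, read 5′ to 3′ on the coding strand, from the RefSeq promoter table of build GRCm38.p6. Fasn lies at chr11:120824548-120824797 on the minus strand, Acss2 at chr2:155517793-155518042 on the plus strand, Thrsp at chr7:97417551-97417800 on the minus strand, and Mlxipl, at the start that holds the longer motif, at chr5:135106641-135106890 on the plus strand. Capitals mark TCACNCCAC (a sterol regulatory element, the site that SREBP proteins are known to bind), TCACCC (the first letters of that site with C in the free position), CACGTG (the E-box that USF and the ChREBP and SREBP families are known to read) and CCAAT (the box bound by NF-Y), each on either strand, where CCAAT reads ATTGG on the other strand.
Fasn: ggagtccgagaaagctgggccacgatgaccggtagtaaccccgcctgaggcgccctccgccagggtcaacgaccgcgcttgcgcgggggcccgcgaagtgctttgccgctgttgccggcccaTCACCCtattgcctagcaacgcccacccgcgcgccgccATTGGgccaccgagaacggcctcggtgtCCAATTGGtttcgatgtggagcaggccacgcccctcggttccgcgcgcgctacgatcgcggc
Acss2: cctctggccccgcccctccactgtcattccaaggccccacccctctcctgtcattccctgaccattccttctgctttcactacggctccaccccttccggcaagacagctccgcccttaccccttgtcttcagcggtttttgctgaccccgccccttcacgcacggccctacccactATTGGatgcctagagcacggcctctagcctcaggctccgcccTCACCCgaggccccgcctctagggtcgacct
Thrsp: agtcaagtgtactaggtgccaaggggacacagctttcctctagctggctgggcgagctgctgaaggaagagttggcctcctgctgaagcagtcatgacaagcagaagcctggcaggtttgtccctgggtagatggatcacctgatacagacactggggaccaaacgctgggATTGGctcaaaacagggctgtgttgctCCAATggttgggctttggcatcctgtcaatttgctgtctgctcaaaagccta
Mlxipl: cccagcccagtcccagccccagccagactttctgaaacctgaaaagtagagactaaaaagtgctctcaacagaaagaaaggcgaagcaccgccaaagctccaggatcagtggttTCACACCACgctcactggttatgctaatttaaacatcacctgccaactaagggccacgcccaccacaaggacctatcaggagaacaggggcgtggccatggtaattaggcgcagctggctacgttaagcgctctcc
TCACCC stood in Fasn and Acss2 of these, TCACNCCAC in Mlxipl, and CCAAT in Fasn, Acss2 and Thrsp, while CACGTG did not occur in these windows. The Mlxipl start was picked because it holds TCACNCCAC, so that match was fixed by the choice. Another Mlxipl start, in the window chr5:135089640-135089939, held CACGTG at -98 to -93 and CCAAT at -173 to -169. The promoters of Acly and Acaca in the table held no match to any of these letters. TCACCC can lie within TCACNCCAC. The table held 41 promoters of 29 of the 35 members, since some genes have several starts. TCACNCCAC stood within the 250 bases of 2 of the 41 promoters, against 1.05% of all 32851 promoters, and TCACCC, which was added after these sequences had been read, in 10 of the 41, against 13.8%. CCAAT stood in 17 of the 41, against 33.8% of all promoters, and CACGTG in 7 of the 41, against 6.02%. A match describes these letters and does not show that a factor binds. Dgat1, Dgat2, Fads1, Mogat2, Scd1 and Scd2 were not in the table.

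Levels are log2 signals minus the 75th percentile of the same array, so a difference of 1 is a 2-fold change, and levels of different genes cannot be compared. The letters SD name the standard diet throughout, and a value after ± is a standard deviation for a mean and a standard error for a difference. Per array, 59.8% to 82.3% of the spots were well above background. The 3 arrays of 1 slide (HFD 5, HR 6 and HQR 4) had the highest shares, from 79.6% to 82.3%. Hepatocyte markers were bright in each group: the summed level of 6 had medians between 9.59 and 10.07. The summed level of 6 measured adipocyte markers ranged from 1.82 to 3.84 in SD and from 6.15 to 7.57 in HFD, with HQ, HR and HQR between 3.91 and 7.02. In HFD that sum was led by Cfd and Cidea, while in SD Fabp4 had the highest mean of these markers, at 2.31. Since levels of different genes cannot be compared, this describes the signal in the sum and not which marker is most abundant. Between HFD and SD, Cfd differed by 5.45 and Cidea by 5.86. The other measured markers differed by 0.10 (Fabp4), -0.26 (Plin1), -0.88 (Retn) and -1.04 (Adipoq). The defining adipocyte gene Lep was well above background on 0 arrays, and Adipoq had a mean of -2.82 in SD and -3.85 in HFD. In whole liver, fewer cells of a type and less RNA per cell cannot be told apart.

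No member passed the test in any of 8 comparisons between diets. With limma and Benjamini-Hochberg adjustment over all 21851 genes, 0 of 35 members had an adjusted p under 0.05, against 0.114% of all genes in HFD versus SD, 0% in HQ versus HFD, 0.00915% in HR versus HFD and 0% in HQR versus HFD. Against SD the counts were again 0 of 35, beside 0.0366% of all genes for HQ, 0.0549% for HR and 0.0503% for HQR, and HQ versus HR gave 0 of 35 beside 0%. The F test across the 5 groups called 0 members and 0.105% of all genes, with 3 members at an unadjusted p under 0.05 beside 3.96% of all genes. At an unadjusted p under 0.05, 5 members in HFD versus SD stood beside 6.14% of all genes. The supplemented groups against HFD gave 1 member for HQ (2.13% of genes), 3 for HR (4.92%) and 2 for HQR (1.36%). Against SD they gave 3 for HQ (3.91%), 5 for HR (5.72%) and 5 for HQR (6.43%), and HQ versus HR gave 1 (1.29%). The comparisons with HFD share the 6 HFD arrays, and those with SD share the 5 SD arrays. The 95% intervals of the members reached a median of 0.53 to either side of the difference in HR and HQR versus HFD and of 0.55 in HFD versus SD.

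The arrays lay on 9 slides, most of which held several diet groups, and a fit that blocked on slide was made as well. Again 0 of 35 members had an adjusted p under 0.05 in limma, against 0.146% of all genes in HFD versus SD, 0%, 0.00458% and 0.00915% for HQ, HR and HQR versus HFD, 0.0595%, 0.124% and 0.229% in the same groups versus SD, and 0% in HQ versus HR. At an unadjusted p under 0.05 stood 4 members in HFD versus SD (11.1% of all genes), and 3 in HQ (4.36%), 5 in HR (11.1%) and 3 in HQR (2.56%) versus HFD. Versus SD there were 4 in HQ (6.45%), 7 in HR (8.25%) and 6 in HQR (10.5%), and HQ versus HR had 3 (2.9%). The 5 members in HR versus HFD and the 7 in HR versus SD were all lower in HR. The shares of all genes that were lower at this p were not computed, so this direction is not set against all genes.

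The median difference of the members was -0.10 in HFD versus SD (all genes -0.04), -0.03 in HQ versus HFD (all genes 0.00) and 0.00 in HQR versus HFD (all genes 0.05). In HR versus HFD it was -0.10 (all genes 0.01), and 23 of 35 differences were below 0, against 47.9% of all genes. In HR versus SD it was -0.25 (all genes -0.05), with 27 of 35 below 0, against 57.3% of all genes. It was -0.13 in HQ versus SD (all genes -0.05) and -0.16 in HQR versus SD (all genes 0.01). HQ versus HR had a median of 0.10 and all genes -0.01. These shares describe correlated genes in the same livers and carry no test.

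**Figure D1:**
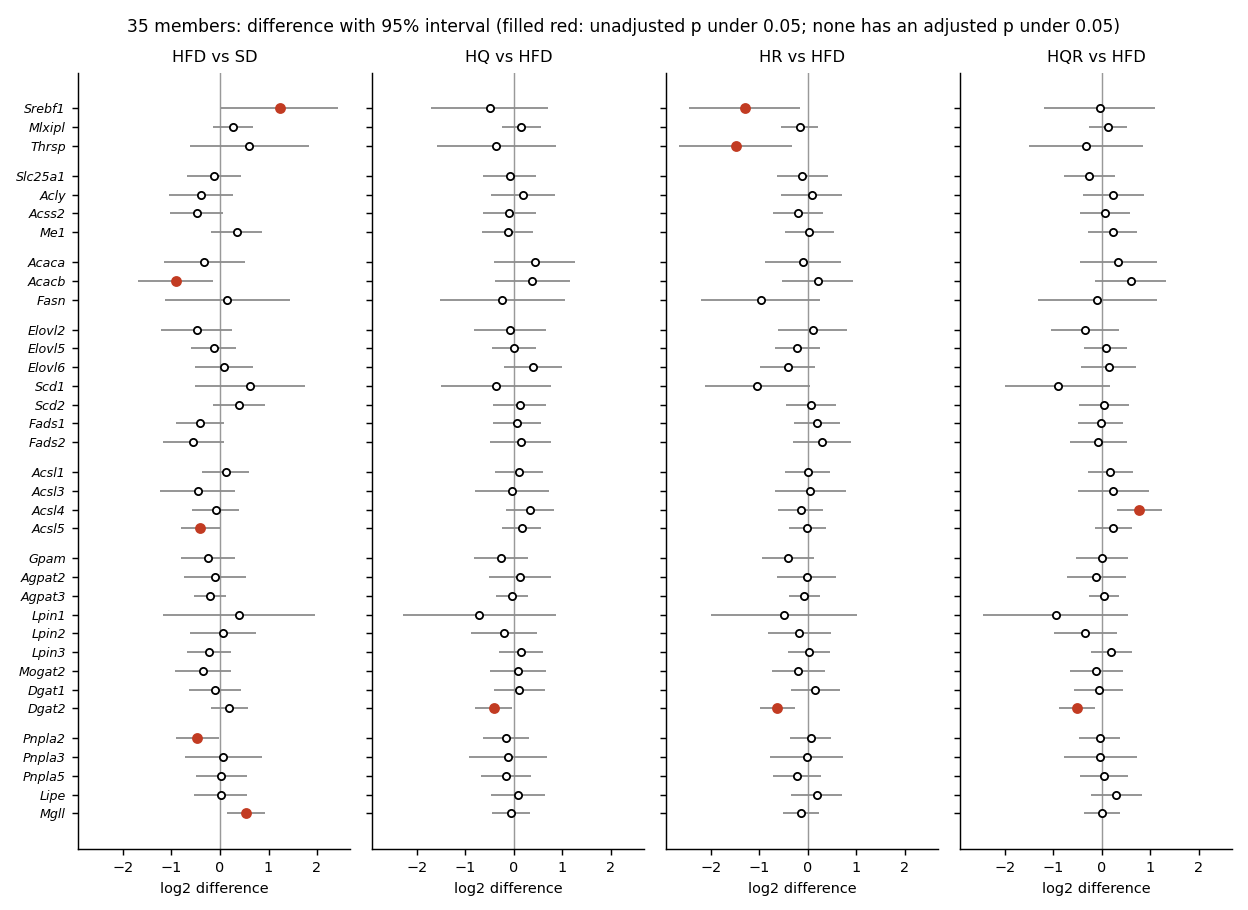
Log2 difference of each of the 35 members (points) with its 95% interval (lines) in HFD versus SD and in HQ, HR and HQR versus HFD, with the genes ordered by role from regulators to lipases. Filled points have an unadjusted p under 0.05 (5, 1, 3 and 2 members), and none has an adjusted p under 0.05.

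Among the regulators, Srebf1 had its highest mean in HFD and its lowest in HR. Its levels were 6.81, 4.79, 4.93, 5.78 and 6.53 in the 5 SD livers, and ran from 6.35 to 7.88 with a median of 6.88 in HFD. The HQ livers had 5.96, 8.10, 6.46, 7.44 and 4.56. HR livers ran from 4.07 to 7.32 with a median of 5.61, and HQR livers from 6.21 to 8.11 with a median of 6.68. The ranges of all groups overlapped, and the HQ livers spread over nearly the whole range. The difference between HFD and SD was 1.23 ± 0.58 (95% interval 0.03 to 2.43; unadjusted p = 0.0448, adjusted p = 0.796 in limma), with 6 of 6 HFD livers above the SD mean. HR differed from HFD by -1.30 ± 0.56 (unadjusted p = 0.0275, adjusted p = 0.959), with 5 of 6 HR livers below the HFD mean. HQ differed from HFD by -0.50 and HQR by -0.04, which became -0.51 with slide as a block (unadjusted p = 0.383, adjusted p = 1.00 in limma). On the 4 slides that held both groups, HQR minus HFD ran from -1.53 to -0.04, and HFD minus SD from -0.45 to 1.63 on 4 slides. The probe at chr11:60013214-60013273 (mm9) is the only Srebf1 probe kept, so the isoforms SREBP-1a and SREBP-1c were not separated.

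Thrsp encodes a small protein, Spot 14, known to be induced with fatty acid synthesis. Its SD livers had 2 low and 3 high values, at 1.41, -0.49, -0.75, 1.55 and 1.44. HFD livers ran from -0.29 to 2.63 with a median of 1.16 and HR livers from -0.97 to 1.07 with a median of -0.61, while HQ livers had 0.67, 2.42, 0.91, 1.08 and -0.71 and HQR livers ran from -0.87 to 1.74 with a median of 1.22. Each HR liver lay below the HFD mean, but the ranges overlapped. HR differed from HFD by -1.49 ± 0.57, or 2.80-fold lower (95% interval -2.66 to -0.32; unadjusted p = 0.0147, adjusted p = 0.944 in limma). HFD differed from SD by 0.60 ± 0.60. Mlxipl, the ChREBP gene, varied much less, with means of 6.96 ± 0.30 in SD, 7.22 ± 0.21 in HFD, 7.37 ± 0.34 in HQ, 7.05 ± 0.45 in HR and 7.35 ± 0.20 in HQR (standard deviation; n = 5, 6, 5, 6 and 6, as for the means below). Its largest difference was 0.42 ± 0.21 between HQ and SD (unadjusted p = 0.0540, adjusted p = 1.00 in limma).

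**Figure D2:**
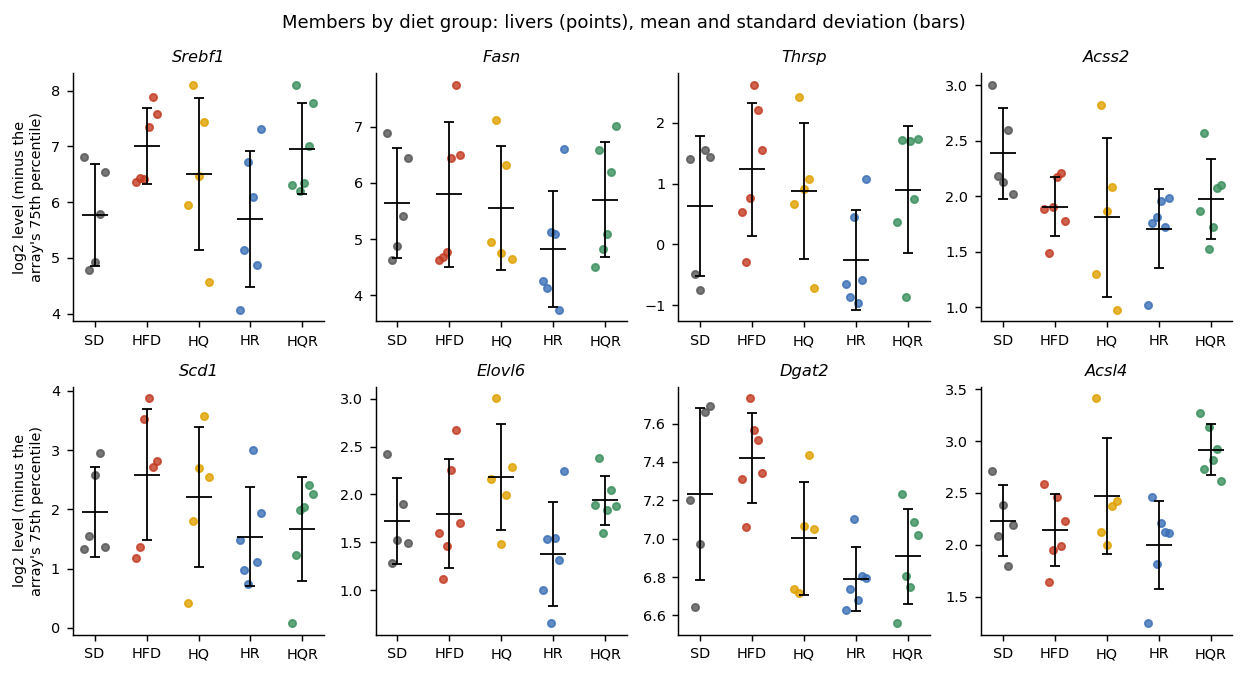
Log2 level, relative to the 75th percentile of the array, of 8 members in each liver (points) by diet group, with the mean and standard deviation (bars). The HQR livers of Acsl4, from 2.62 to 3.27, all lie above the HFD livers, and the HR livers of Acss2 all lie below the SD livers, while for the other 6 genes the groups of each of the 8 comparisons overlap.

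The genes that supply acetyl-CoA and NADPH had differences between -0.68 and 0.57 over the 8 comparisons. The acetate-activating enzyme gene Acss2 had 3.01, 2.18, 2.13, 2.60 and 2.02 in SD, and ran from 1.02 to 1.98 with a median of 1.78 in HR. Every HR liver lay below every SD liver, a separation in that direction that 0.352% of all genes showed. The difference was -0.68 ± 0.26, or 1.60-fold lower (unadjusted p = 0.0159, adjusted p = 0.637 in limma). HFD livers ran from 1.49 to 2.21 with a median of 1.90, HQ livers had 1.30, 2.82, 1.87, 2.09 and 0.97, and HQR livers ran from 1.53 to 2.57 with a median of 1.97, and each of these groups overlapped with SD. HQ differed from SD by -0.58 (adjusted p = 1.00 in limma). Acly, the citrate-splitting enzyme gene, had means of 2.56 ± 0.72 in SD, 2.16 ± 0.48 in HFD, 2.34 ± 0.61 in HQ, 2.24 ± 0.44 in HR and 2.40 ± 0.45 in HQR, and its largest difference was -0.40 ± 0.32 in HFD versus SD. Slc25a1 differed from HFD by -0.26 in HQR, and Me1 differed from SD by 0.57 ± 0.26 in HQR (unadjusted p = 0.0349, adjusted p = 0.733 in limma). The other Me1 probe gave 0.34 there, and followed the probe used with r of only 0.142 across arrays.

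The levels of Fasn overlapped between all groups, with a wide spread between mice. Fasn had 6.88, 4.63, 4.88, 5.40 and 6.45 in SD and 4.95, 7.12, 4.76, 6.31 and 4.64 in HQ. It ran from 4.64 to 7.75 with a median of 5.61 in HFD, from 3.74 to 6.60 with a median of 4.68 in HR and from 4.51 to 7.01 with a median of 5.64 in HQR. HFD livers differed from SD livers by 0.15 ± 0.63, with a 95% interval from -1.14 to 1.43, which spans changes of more than 2-fold both ways. HR differed from HFD by -0.97 ± 0.60 (unadjusted p = 0.115, adjusted p = 1.00 in limma), with 5 of 6 HR livers below the HFD mean. A further Fasn probe gave -0.85. Acaca had means of -0.61 ± 0.64 in SD, -0.93 ± 0.56 in HFD, -0.50 ± 1.26 in HQ, -1.03 ± 0.42 in HR and -0.59 ± 0.34 in HQR, and its highest values were 1.69 in HQ 2 and 0.50 in SD 1. Acacb, whose product malonyl-CoA is known to hold back entry of fatty acids into mitochondria, had means of 2.15 ± 0.34 in SD, 1.24 ± 0.42 in HFD, 1.62 ± 1.17 in HQ, 1.44 ± 0.70 in HR and 1.84 ± 0.21 in HQR. It differed by -0.91 ± 0.38 between HFD and SD, or 1.88-fold lower, with 6 of 6 HFD livers below the SD mean (unadjusted p = 0.0226, adjusted p = 0.703 in limma). The other Acacb probe gave -0.50 there, and followed the probe used with r = 0.422 across arrays.

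Among the desaturases, Scd1, which makes oleate and palmitoleate, had 1.33, 1.55, 2.57, 2.96 and 1.37 in SD and 0.42, 1.81, 2.71, 3.58 and 2.55 in HQ. It ran from 1.18 to 3.88 with a median of 2.77 in HFD, from 0.73 to 3.00 with a median of 1.29 in HR and from 0.07 to 2.41 with a median of 2.02 in HQR. HR differed from HFD by -1.04 ± 0.53 (unadjusted p = 0.0584, adjusted p = 1.00 in limma) and HQR by -0.91 ± 0.53 (unadjusted p = 0.0957, adjusted p = 0.987). With slide as a block the unadjusted p became 0.00314 and 0.0197, and the adjusted p 0.285 and 1.00. Fads1 and Fads2, the desaturases of polyunsaturated fatty acids, differed between HFD and SD by -0.42 ± 0.24 and -0.55 ± 0.30. Fads1 had means of -0.16 ± 0.09 in SD, -0.58 ± 0.51 in HFD, -0.51 ± 0.32 in HQ, -0.39 ± 0.30 in HR and -0.60 ± 0.51 in HQR, and Fads2 of 3.23 ± 0.52 in SD, 2.68 ± 0.36 in HFD, 2.82 ± 0.75 in HQ, 2.97 ± 0.46 in HR and 2.61 ± 0.46 in HQR. Scd2 differed by at most 0.51 ± 0.27, in HQ versus SD.

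Elovl6, which lengthens palmitate to stearate, had the smallest p of the members between quercetin and resveratrol. The HQ livers had 2.16, 3.01, 1.48, 1.99 and 2.29, while HR livers ran from 0.65 to 2.25 with a median of 1.42, HFD livers from 1.11 to 2.67 with a median of 1.65 and HQR livers from 1.60 to 2.38 with a median of 1.89. SD livers had 2.42, 1.29, 1.52, 1.90 and 1.49. Every HQ liver lay above the HR mean, though 3 of 6 HR livers lay above the lowest HQ liver. Elovl2, an elongase of long polyunsaturated chains, had means of 4.20 ± 0.70 in SD, 3.71 ± 0.44 in HFD, 3.63 ± 0.87 in HQ, 3.81 ± 0.45 in HR and 3.37 ± 0.59 in HQR, and HQR differed from SD by -0.83 ± 0.36 (unadjusted p = 0.0297, adjusted p = 0.702 in limma). Elovl5, from 27 livers because 1 spot in HR was marked as an outlier, had means between 5.17 and 5.52.

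Of the acyl-CoA synthetases, Acsl4, which is known to favour arachidonate, stood highest in the mice given both compounds. HQR livers ran from 2.62 to 3.27 with a median of 2.87, and HFD livers from 1.65 to 2.58 with a median of 2.11, with no overlap. Such a separation, with HQR higher, was shown by 0.0229% of all genes. The difference was 0.77 ± 0.23, or 1.71-fold (95% interval 0.30 to 1.24; unadjusted p = 0.00221, rank 20 of all genes, adjusted p = 0.987 in limma). On the 4 slides that held both groups the difference ran from 0.54 to 1.18. The other Acsl4 probe gave 0.59. SD livers had 2.71, 2.09, 2.38, 1.80 and 2.19 and HQ livers 3.42, 2.13, 2.00, 2.37 and 2.42, and HR livers ran from 1.24 to 2.46 with a median of 2.12. HQR differed from SD by 0.68 ± 0.24 (unadjusted p = 0.00833, adjusted p = 0.474). With slide as a block, the HQR minus HFD difference was 0.87 with an unadjusted p of 0.000157 and an adjusted p of 0.246. Acsl1, a synthetase abundant in liver, had means from 8.22 to 8.51, and Acsl3 from -0.15 to 0.34. The Acsl1 probe used gave -0.004 in HR versus HFD and 0.11 in HR versus SD. Its further probes differed from it, with 0.57 and 0.40 in HR versus HFD and 0.66 and 0.51 in HR versus SD, so the level of Acsl1 in HR depends on the probe. Acsl5 differed by -0.40 ± 0.19 between HFD and SD (unadjusted p = 0.0480).

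In glyceride assembly, Dgat2, which adds the last acyl chain of triglyceride, had its highest mean in HFD and a lower mean in each supplemented group. HFD livers ran from 7.06 to 7.73 with a median of 7.43. The HQ livers had 6.74, 6.72, 7.07, 7.44 and 7.05, HR livers ran from 6.63 to 7.10 with a median of 6.77 and HQR livers from 6.56 to 7.23 with a median of 6.91. The SD livers spanned most of the whole range, at 7.20, 6.65, 6.97, 7.66 and 7.69. HR livers lay in a narrow band whose top, HR 3, was just above the lowest HFD liver. The difference from HFD was -0.63 ± 0.18 in HR, or 1.55-fold lower (95% interval -0.99 to -0.27; unadjusted p = 0.00140, rank 48, adjusted p = 0.619 in limma). The difference was -0.51 ± 0.18 in HQR (unadjusted p = 0.00740, adjusted p = 0.987) and -0.42 ± 0.19 in HQ (unadjusted p = 0.0319, adjusted p = 1.00). These 3 differences share the HFD livers and are not independent. On slides that held both groups the difference was below 0 on 4 of 4 for HR, 4 of 4 for HQR and 2 of 2 for HQ. The array carried 2 further Dgat2 probes with HR differences of -0.52 and -0.37.

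Gpam, the mitochondrial enzyme that attaches the first acyl chain, had means of -1.63 ± 0.29 in SD, -1.88 ± 0.37 in HFD, -2.14 ± 0.62 in HQ, -2.28 ± 0.29 in HR and -1.88 ± 0.59 in HQR. HR differed from SD by -0.66 ± 0.27 (unadjusted p = 0.0231, adjusted p = 0.734 in limma), with 6 of 6 HR livers below the SD mean. Lpin1, a phosphatidate phosphatase that also acts in the nucleus, had single livers far above the rest. SD livers had 1.70, 1.81, 1.10, 5.21 and 1.66 and HQ livers 2.40, 1.96, 0.95, 1.02 and 3.56. HFD livers ran from 0.99 to 5.03 with a median of 2.53, HR livers from 0.97 to 3.00 with a median of 2.32 and HQR livers from 0.02 to 3.28 with a median of 1.66. No Lpin1 difference had an unadjusted p under 0.05, and HFD versus SD gave 0.39 with an interval from -1.18 to 1.96, and 0.00 with slide as a block. Dgat1, the other diacylglycerol acyltransferase, had means of 0.69 ± 0.47 in SD, 0.59 ± 0.37 in HFD, 0.70 ± 0.58 in HQ, 0.74 ± 0.40 in HR and 0.52 ± 0.30 in HQR, with differences from HFD between -0.07 and 0.15. Agpat2, Agpat3, Lpin2, Lpin3 and the monoacylglycerol acyltransferase Mogat2 had differences of at most 0.36 in size from HFD or between HFD and SD.

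Among the lipases, Mgll, which releases the last fatty acid from monoacylglycerol, was higher on average in each high fat group than in SD. SD livers had 5.43, 6.44, 5.98, 6.35 and 5.95, and HFD livers ran from 6.14 to 6.89 with a median of 6.59. The difference was 0.54 ± 0.19, or 1.46-fold (95% interval 0.16 to 0.93; unadjusted p = 0.00785, adjusted p = 0.539 in limma), and 6 of 6 HFD livers lay above the SD mean. HQ livers had 6.43, 5.96, 6.45, 6.61 and 7.09, HR livers ran from 6.17 to 6.72 with a median of 6.45 and HQR livers from 6.28 to 6.72 with a median of 6.61, and each of these groups overlapped with SD. HQ, HR and HQR differed from SD by 0.48, 0.40 and 0.54 (adjusted p = 1.00, 0.828 and 0.474), all against the same SD livers. Pnpla2, the lipase that opens triglyceride breakdown, had means of 4.03 ± 0.33 in SD, 3.57 ± 0.40 in HFD, 3.42 ± 0.37 in HQ, 3.63 ± 0.33 in HR and 3.53 ± 0.30 in HQR, from 27 livers because 1 HQ spot was marked as an outlier (n = 4 in HQ). It differed from SD by -0.46 ± 0.22 in HFD, -0.62 ± 0.24 in HQ and -0.51 ± 0.22 in HQR (adjusted p = 0.784, 0.991 and 0.691 in limma). Lipe had means of 2.13 ± 0.33 in SD, 2.14 ± 0.35 in HFD, 2.23 ± 0.55 in HQ, 2.32 ± 0.56 in HR and 2.44 ± 0.40 in HQR. Pnpla3, a lipase best known for a human variant linked to fatty liver, had means of -2.56 ± 0.68 in SD, -2.49 ± 0.89 in HFD, -2.62 ± 0.79 in HQ, -2.52 ± 0.55 in HR and -2.52 ± 0.28 in HQR, and Pnpla5 between -2.73 and -2.46.

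Quercetin, a flavonol, and resveratrol, a stilbene, were given at the same dose of 0.4% and for the same 26 weeks, which allows 1 direct comparison of the compounds. Elovl6 was 0.80 ± 0.29 higher in HQ than in HR, or 1.75-fold (95% interval 0.21 to 1.40; unadjusted p = 0.0100, adjusted p = 1.00 in limma). On the 3 slides that held both groups, this difference ran from 0.97 to 2.01. Thrsp differed by 1.13 (interval -0.10 to 2.36), Srebf1 by 0.80 (-0.40 to 2.01), Fasn by 0.73 (-0.55 to 2.02) and Acsl4 by 0.47 (-0.02 to 0.96). Dgat2 differed by 0.21 (-0.17 to 0.59). The intervals of 34 of 35 members held 0, and none of the 35 differences passed the adjusted threshold, so the compounds could not be told apart on these genes, which does not show that they act alike. In HQR both compounds were at 0.2%, a dose that neither single group received. Beside each other, the differences from HFD in HQ, HR and HQR were -0.36, -1.49 and -0.33 for Thrsp, -0.50, -1.30 and -0.04 for Srebf1, and 0.33, -0.15 and 0.77 for Acsl4. With slide as a block they were -0.48, -1.51 and -0.80 for Thrsp, -0.51, -1.34 and -0.51 for Srebf1, and 0.50, 0.04 and 0.87 for Acsl4, and the HQR differences of Thrsp and Srebf1 were below 0 on 4 of 4 shared slides.

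Mice on the same diet differed widely in part of the route. The standard deviation between livers of the same diet, pooled over the 5 groups, was 1.34 for Lpin1, 1.09 for Fasn, 1.04 for Thrsp, 1.02 for Srebf1 and 0.964 for Scd1 on the log2 scale. These 5 lay between the 93.2 and 98.8 percentiles of all genes, whose median was 0.479. The median of the 35 members was 0.447. At the other end were Agpat3 (0.233), Dgat2 (0.286), Mgll (0.293), Acsl5 (0.303) and Mlxipl (0.312). Dgat2 and Mgll, each with the smallest p of the members in 2 of the 8 comparisons, were among the least variable members, and Thrsp and Srebf1, with larger differences, among the most variable. For Lpin1 the high livers were HFD 4 at 5.03, HFD 1 at 4.05, HFD 3 at 3.65, HQ 5 at 3.56 and SD 4 at 5.21, and the 3 other Lpin1 probes followed the probe used with r between 0.982 and 0.998 across arrays. Array shares well above background had r = -0.272 and rho = -0.359 with Lpin1 (permutation p = 0.198 and 0.0818) once diet means were removed.

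**Figure D3:**
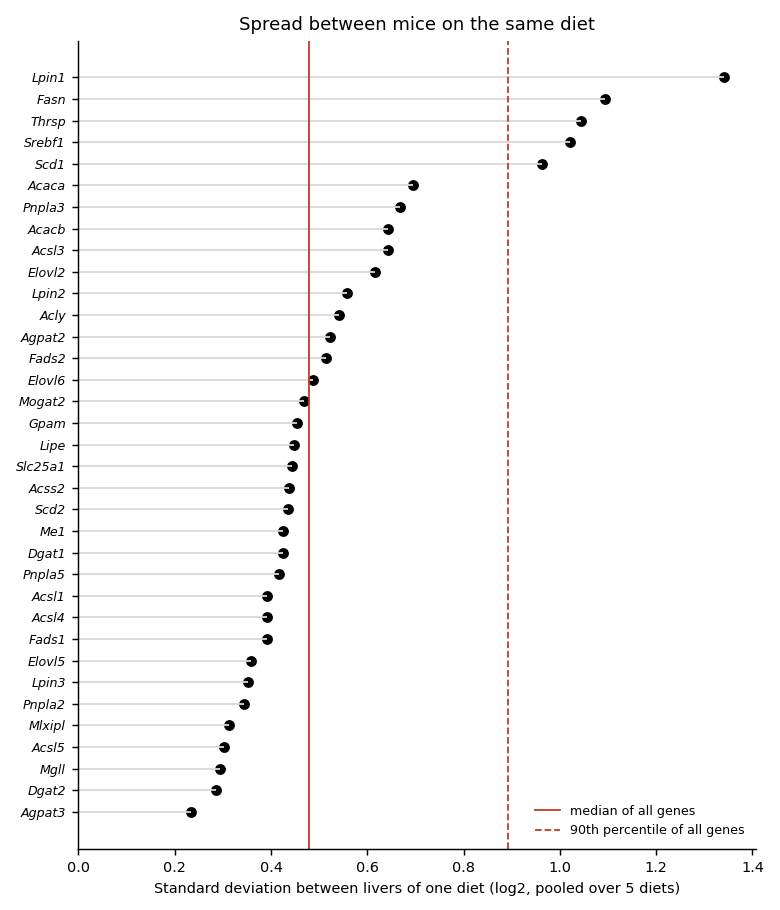
Standard deviation between livers of the same diet, pooled over the 5 groups (x axis, log2), for each of the 35 members, with the median (0.479) and the 90th percentile (0.892) of all genes as lines. Lpin1, Fasn, Thrsp, Srebf1 and Scd1 lie above the 90th percentile, and Agpat3 has the smallest value.

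That spread was shared by part of the route. Each liver was expressed as its deviation from the mean of its own diet group, and Srebf1 was set against the 34 other members over the 28 livers, with p-values from 100000 permutations within groups, where 1e-05 is the smallest p possible, and Benjamini-Hochberg adjustment over the 34 relations. Fasn followed Srebf1 most closely, with Pearson's r = 0.879 (permutation p = 1e-05, adjusted p = 0.000113) and Spearman's rho = 0.847 (permutation p = 1e-05). By r, Fasn ranked first of 21850 genes, Acss2 14 and Thrsp 25. Genes that are not members lay between Fasn and Acss2, such as Tiam2 (0.839), Luc7l2 (0.835) and Birc3 (0.820). A close relation with Srebf1 was thus not particular to this route. Acss2 had r = 0.798 and rho = 0.798, and Thrsp r = 0.787 and rho = 0.766 (adjusted p = 0.000113 for each r and rho by permutation). Next came Acsl3 (r = 0.738, rho = 0.666, adjusted permutation p = 0.00146 and 0.00382), Acly (0.700, 0.720, 0.00122 and 0.00153), Acaca (0.673, 0.631, 0.00146 and 0.00350), Acsl5 (0.646, 0.674, 0.00178 and 0.00255) and Mlxipl (0.635, 0.598, 0.00554 and 0.00808). In all, 8 of 34 members had r of at least 0.6, against 1.91% of all genes. By r, 18 of 34 relations passed the threshold, 14 of them positive, and by rho 14, with 12 positive. The share of all genes that would pass it was not computed. Over all other genes, r had a 5th percentile of -0.444 and a 95th of 0.496. Lpin3 (0.483) and Lpin1 (-0.404) passed although they lay between these values. The median r was 0.191 over the members and 0.131 over all other genes.

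The deviations gathered on both sides of the diet mean, with only 3 of 28 livers within 0.3 of it for Srebf1 and 2 for Fasn, and 27 of 28 livers lay on the same side for both genes. The relation was also read within each side for 5 of the 34 members, a choice made after seeing the data, with p-values adjusted over 10 relations. A split on Srebf1 itself narrows its range and leaves fewer livers, which lowers r for a graded relation too, so these values do not tell a graded relation from one between a low and a high set. In the 14 livers below their diet mean of Srebf1, Fasn had r = -0.103 (rho = 0.0637, permutation p = 0.731 and 0.833, adjusted p = 0.731 and 0.833). In the 14 livers above it, Fasn had r = 0.731 (rho = 0.705, permutation p = 0.00328 and 0.00634, adjusted p = 0.0164 and 0.0634). Without the farthest 2 livers of each side, r of Fasn was 0.262 below and 0.620 above, so its sign below rests on them. Acss2 had r = 0.753 below (rho = 0.490, adjusted permutation p = 0.0164 and 0.224), which came to 0.268 without the farthest 2 livers and so rests on them, and r = 0.493 above (rho = 0.618, adjusted permutation p = 0.141 and 0.109). For Thrsp, Acsl1 and Pnpla2 no relation within a side passed the adjusted threshold by permutation, with r of 0.381 and 0.513, -0.231 and -0.541, and -0.200 and -0.113. No within-side rho passed it.

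Scd1, although its spread was also wide, had no relation past the threshold. Its r with Srebf1 was 0.144 (rho = 0.0766, permutation p = 0.514 for r and 0.718 for rho, adjusted p = 0.673 and 0.718). Fads1, Fads2, Slc25a1, Me1, Acacb and Acsl4 had r between -0.112 and 0.248, with adjusted permutation p of 0.387 or more. Negative relations were those of Acsl1 (r = -0.707, rho = -0.675, adjusted permutation p = 0.000850 and 0.00255), Pnpla2 (-0.662, -0.612, 0.00212 and 0.00860), Mgll (-0.531, -0.414, 0.0215 and 0.0704) and Lpin1 (-0.404, -0.411, 0.0498 and 0.0586), which act in fatty acid activation, lipolysis and phosphatidate hydrolysis. For Mgll and Lpin1 rho did not pass.

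**Figure D4:**
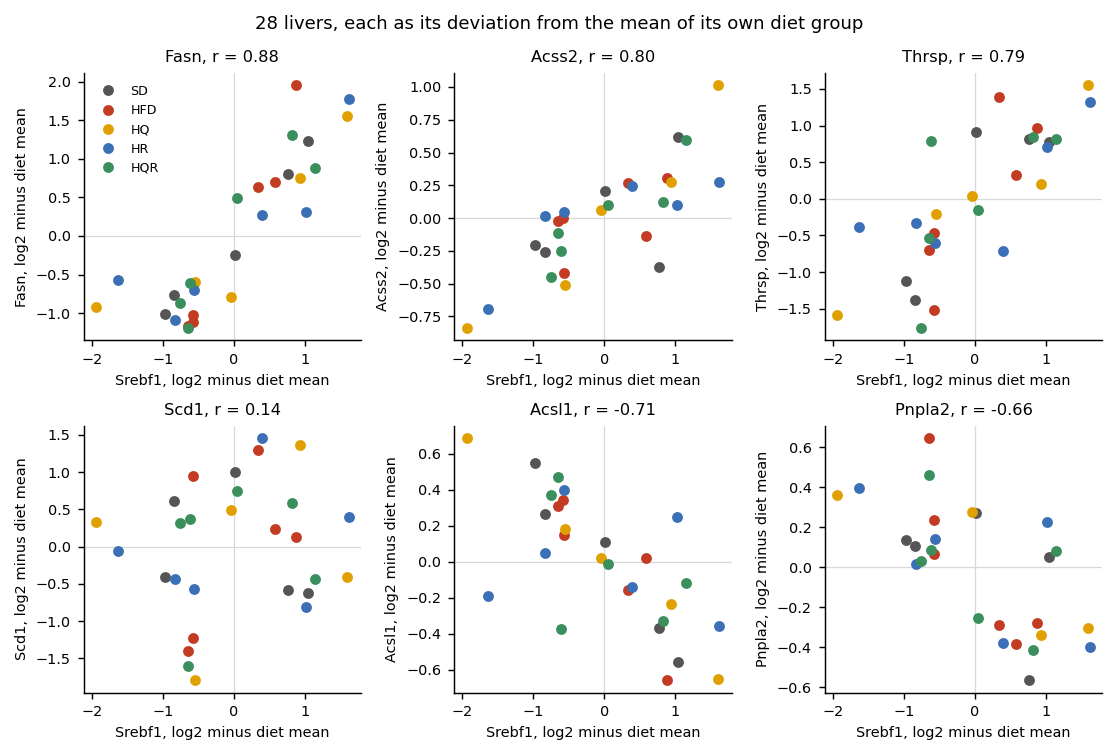
Srebf1 (x axis) against Fasn, Acss2, Thrsp, Scd1, Acsl1 and Pnpla2 (y axes) in 28 livers coloured by diet (27 for Pnpla2), each as the log2 deviation from the mean of its own diet group. Fasn, Acss2 and Thrsp slope up (r = 0.88, 0.80 and 0.79), Scd1 forms a cloud, and Acsl1 and Pnpla2 slope down. Few Fasn livers lie near the diet mean, and r was -0.103 in the 14 livers below their diet mean of Srebf1 and 0.731 in the 14 above. Without the farthest 2 livers of each side, r was 0.262 and 0.620.

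Fasn, Acss2 and Thrsp kept a pooled r of at least 0.681 under each of 5 checks. Without HR 1 and HQ 5, the livers farthest from the median of Srebf1, r was 0.930 for Fasn, 0.716 for Acss2 and 0.787 for Thrsp. With slide means removed as well, it was 0.896, 0.870 and 0.788, and Mlxipl reached 0.909. However, Fasn, Acss2 and Thrsp then ranked 42, 84 and 329 of all genes, and 7.31% of all genes had r of at least 0.6. Quantile normalization gave 0.901, 0.827 and 0.804. Without the 3 arrays of the bright slide r was 0.871, 0.799 and 0.804. The normexp background correction gave 0.897, 0.845 and 0.681, and also kept Acly at 0.796 and Mlxipl at 0.714. Other relations did not hold: under normexp Acaca came to 0.0832, Acsl1 to -0.0906 and Pnpla2 to -0.168, and Mogat2, Pnpla3, Gpam, Pnpla5 and Mgll changed sign. Of the 18 relations past the threshold, 13 kept their sign under normexp, and 18 under each of the 4 other checks. For Acaca another of its probes is the brightest under normexp and under quantile normalization, and the 2 probes correlate at r = 0.463 across arrays. The share of spots well above background on an array, with diet means removed, had r = 0.291 with Srebf1 (rho = 0.284, permutation p = 0.155 and 0.173) and 0.449 with Fasn (rho = 0.431, permutation p = 0.0293 and 0.0339, adjusted p = 0.176 and 0.204 over 6 relations). Its part in the relation was not tested.

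**Figure D5:**
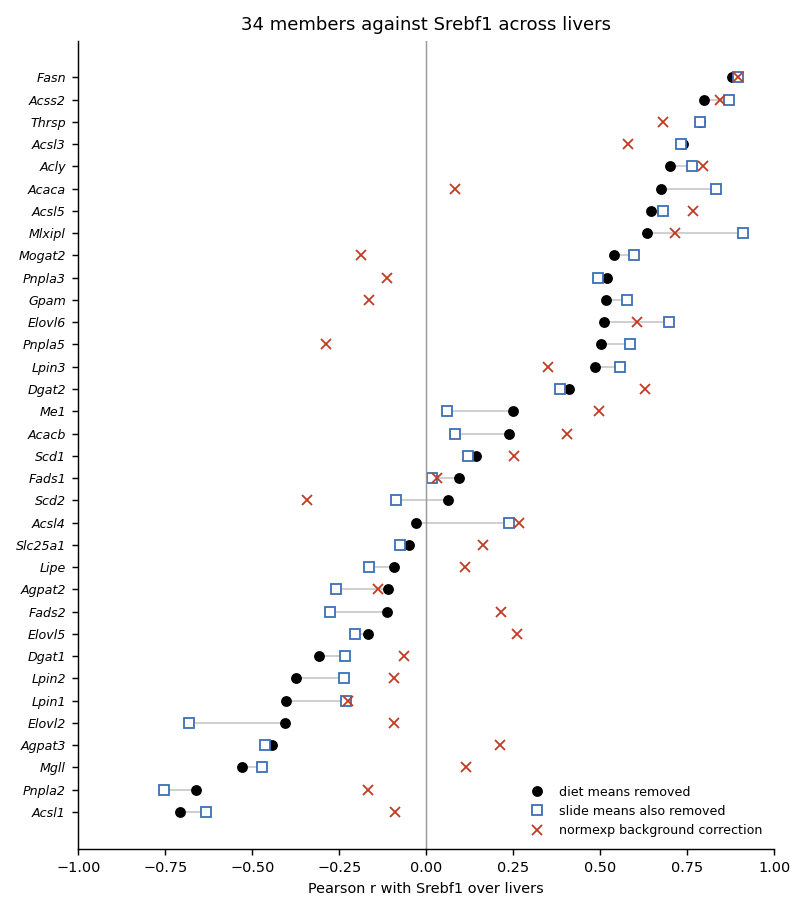
Pearson's r of each of 34 members with Srebf1 over the livers (x axis), with diet means removed (filled), with slide means also removed (squares) and under normexp background correction (crosses), ordered by the first. Fasn stays between 0.879 and 0.897 in these 3 settings, while Gpam, Pnpla3, Mogat2 and Pnpla5 cross 0 under normexp.

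A further 56 genes around the route (regulators of SREBP and ChREBP, other acyltransferases, lipid droplet and export genes) were read for context. In HFD versus SD, 2 of 56 rose and 0 fell, beside 0.114% of all genes called. Cidec, a lipid droplet fusion protein, rose from 0.27 ± 1.76 to 3.45 ± 0.89 (difference 3.19 ± 0.58, adjusted p = 0.0134 in limma). The nuclear receptor gene Pparg rose from 1.90 ± 0.28 to 2.95 ± 0.30 (1.05 ± 0.20, adjusted p = 0.0164 in limma). The adipocyte marker sum given above was also higher in HFD than in SD, through Cfd and Cidea, while its other measured markers differed by -1.04 to 0.10. The part of that sum in Cidec and Pparg was not tested. The monoacylglycerol acyltransferase gene Mogat1 differed by 1.23 ± 0.29 (adjusted p = 0.100 in limma). HQ versus SD called 1 of 56, Cidec at 3.26 ± 0.61 (adjusted p = 0.0408 in limma), beside 0.0366% of all genes. The other 6 comparisons called 0 of 56 with limma. At an unadjusted p under 0.05 stood 1 in HQ (2.13% of all genes), 5 in HR (4.92%) and 2 in HQR (1.36%) versus HFD. HR versus SD had 5 higher and 3 lower (5.72%), HQR versus SD 8 higher and 4 lower (6.43%), and HQ versus HR 1 (1.29%). Across livers, 2 of the 56 had r of at least 0.6 with Srebf1, against 1.91% of all genes: Mid1ip1, the partner protein of Thrsp, at 0.861, and Insig1, an SREBP target that retains the SREBP complex in the endoplasmic reticulum, at 0.756. With slide means also removed, 5 of 56 did, a count near the share of 7.31% of all genes, so it does not set this list apart. They were Mid1ip1 at 0.925, Gpat2 at 0.829, Mbtps1 at 0.760, Insig1 at 0.757 and Scap at 0.717. Before that removal Gpat2 had 0.518, Mbtps1 0.498 and Scap 0.555. Scap escorts SREBP to the Golgi, where the protease encoded by Mbtps1 cuts it. At the other end were Abhd5, the coactivator of the Pnpla2 lipase, at -0.680 and Agpat5 at -0.612, with -0.640 and -0.680 once slide means were removed. Cidec (-0.654), Pparg (-0.634), G6pdx (-0.625), Tecr (-0.618), Plin5 (-0.609) and Plin2 (-0.608) then joined them. Before that removal Cidec had -0.517 and Pparg -0.368. The share of all genes with a negative r of this size was not computed, while the positive share rose from 1.91% to 7.31% with that removal. The negative values therefore do not set these genes apart. All of these values are given without a test.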

How the data were processed

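Per the file headers, the authors' scans were 1-colour Cy3, and Agilent Feature Extraction 10.5.1.1 gave the deposited intensity per spot, background-subtracted and detrended within the array. Nothing was normalized between arrays in these files. After log2 transformation, outlier spots were dropped, replicate spots averaged, and the 75th percentile of non-control probes was subtracted. Probes well above background on at least 5 arrays were kept (32078), with the brightest probe per gene. Gene names were updated through RefSeq accessions and symbols, and probe positions are mm9. All 28 arrays entered 1 fit with limma 3.58.1 in R 4.3.3 (two-sided, Benjamini-Hochberg over 21851 genes, adjusted p under 0.05). The fit was tested on simulated data. The members and lists were chosen with earlier results of these data known. Values in the text were given for a core set of members and for the 3 members with the smallest p in each comparison.

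Scores in the deposited value table (1 per probe on each array) are on a log scale of unstated base: each column has a standard deviation of 1 and a mean of 0, column medians run from -0.169 to -0.0992, and it follows the log2 signal of its array with r of at least 0.9999. It was used as an alternative, multiplied by the median slope of 3.25. Other alternatives were quantile and median scaling, normexp with an offset of 50, other filters and probe averages, array weights, a trend, the compared arrays alone, blocks for slide, scan day or replicate number, and fits without each array in turn. Replicate numbers behaved as pairs for HFD and SD only (5 pairs, correlation of deviations 0.217 to 0.698). This rests on the values alone, since no label states a pairing. SD 1 and HFD 1 lay on the same slide, as did SD 2 and HFD 2. SD 4, HFD 4, SD 5 and HFD 5 were scanned on the same day. In these pairs a pairing cannot be told apart from a shared slide or scan day. The number of arrays limits the precision. Each liver is a separate mouse.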

Additional observations from a re-analysis of the deposited data

Results flagged for a closer look

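Single livers stood apart from the rest of their group in 11 of 175 sets of values (35 members in 5 groups), by the ratio of the gap to the range. Chance gives about 1 in 20, or 8.75 sets, so the number is near what chance gives. The livers lay above their group for Acaca in HQ 2 (1.69, next -0.65), Acaca in SD 1 (0.50, next -0.71), Dgat2 in HR 3 (7.10, next 6.80), Lpin1 in SD 4 (5.21, next 1.81), Lpin2 in HQR 1 (7.46, next 6.31) and Lpin3 in HR 3 (0.29, next -0.24). Livers lay below their group for Acss2 in HR 1 (1.02, next 1.72), Agpat2 in HQR 1 (-0.93, next -0.13), Mgll in HQR 4 (6.28, next 6.56), Mlxipl in HR 1 (6.17, next 7.05) and Pnpla2 in SD 5 (3.47, next 4.09). HR 1 was lowest of its group for Srebf1 as well, at 4.07.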

How the results depend on the processing

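No member was called in any comparison under any of the alternatives, fits without single arrays included, with a smallest adjusted p of 0.0726 (Mgll in HQR versus SD). Counts of all genes called ranged over 10 to 81 in HFD versus SD (25 in the report's fit), 0 to 8 in HR versus HFD (2), 0 to 9 in HQR versus HFD (0), 0 to 1 in HQ versus HFD (0), 0 to 18 in HQ versus SD (8), 0 to 49 in HR versus SD (12), 6 to 113 in HQR versus SD (11) and 9 to 63 in the F test (23). The highest counts came with slide as a random block, with array weights in HQR versus SD, and with quantile normalization in HQ versus HFD. With the replicate block, the pairing seen for HFD and SD, 0 members and 32 genes were called there, and no call on a member changed. The 25 member differences with an unadjusted p under 0.05 kept their sign under each alternative, and 145 of the other 255 changed sign under at least 1. The member median changed sign under 16 of 28 alternatives in HQR versus HFD and 8 of 27 in HQ versus HFD, under array weights in HQR versus SD, and under none in the other 5 comparisons. Normexp moved the median of all genes to 0.24 in HQ and 0.17 in HR versus HFD, with members at -0.15 and -0.17. It also reversed 5 relations with Srebf1: Mogat2 from 0.539 to -0.188, Pnpla3 from 0.518 to -0.114, Gpam from 0.518 to -0.163, Pnpla5 from 0.501 to -0.290 and Mgll from -0.531 to 0.113. The cause was not tested. Leaving out the 3 bright arrays, quantile values blocked on slide, and relations by side were chosen after seeing the data.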
